A study of Mus musculus with 4 samples.

Results

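Keratins are the intermediate filament proteins of epithelial cells. Each filament is built from pairs of 1 acidic type I chain and 1 basic type II chain, so an epithelium is described by which partners it makes. Simple, single-layered epithelia such as the stomach lining make KRT8 with KRT18, often with KRT7 and KRT19, whereas the basal layer of stratified epithelia makes KRT5 with KRT14 and KRT15. KRT17 appears in skin appendages, injured epidermis and many carcinomas, KRT10 in the upper layers of epidermis, and KRT80 in differentiating epithelia.

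The values of 10 keratin genes were read from a table of 23258 genes: KRT8, KRT7, KRT5 and KRT80 of type II, and KRT18, KRT19, KRT17, KRT14, KRT15 and KRT10 of type I. The genes were chosen by name, with the differences between genotypes in these same libraries already known, so their values in that comparison are a description and support nothing beyond themselves. All 10 were found, and 7 passed the filter on low counts. KRT19, KRT5 and KRT14 did not.

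RNA sequencing was available for 4 libraries, whose labels describe gastric tumours from C57BL/6 mice aged 20 weeks, 2 from WT animals and 2 from Mst4F/F UBCcre animals (Mst4 KO, here KO). UBCcre is the usual name of a Cre driven by the broadly active ubiquitin C promoter, so the deletion would not be limited to epithelium. The kinase gene Mst4 is called STK26 in human. Mice of both sexes were used, per the labels, and the sources used here give neither how the tumours arose nor whether each library is a separate animal. P-values therefore measure only how far these libraries differ, and that may be technical.

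The organism in the labels is mouse, yet the genes listed are human: all 23258 row identifiers carry the human taxon prefix, and none of the 10 gene numbers is a mouse gene number. The genes are therefore given by their human symbols, and WT and KO refer to the labels of the libraries. Library totals were 18613533 to 30505281 estimated counts, WT replicate 1 being the deepest. The targeted gene, STK26, measured 54.1 and 54.9 CPM (counts scaled to library size) in WT, against 9.03 and 7.36 CPM in KO. The WT libraries differed more from each other than the KO libraries did. Of 11958 genes averaging 5 CPM or more, 19.5% differed over 2-fold between the WT libraries, and 0.334% did so between the KO libraries. Markers of the stomach were sparse. Of 13 gastric gland markers found, 3 reached 1 FPKM (fragments scaled to transcript length and library size) in any library, led by PSCA, and TFF2 was at 0 in every library.

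As listed for these human genes, the keratins split into a strongly expressed and a nearly silent set. Why mouse-labelled samples have values for human genes only is not known, and its effect on these levels was not tested. KRT8, KRT18, KRT7, KRT17, KRT10 and KRT80 were above 10 FPKM in every library, while KRT15, KRT19, KRT14 and KRT5 stayed below 2 FPKM in all 4. The classic basal pair KRT5 and KRT14 was thus at or near the detection limit, and so was the simple-epithelial KRT19. The data therefore bear out the simple-epithelial part of the set through KRT8, KRT18 and KRT7 only, and its basal part not at all, with KRT17 expressed where KRT5 and KRT14 were hardly detected.

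**Figure D1:**
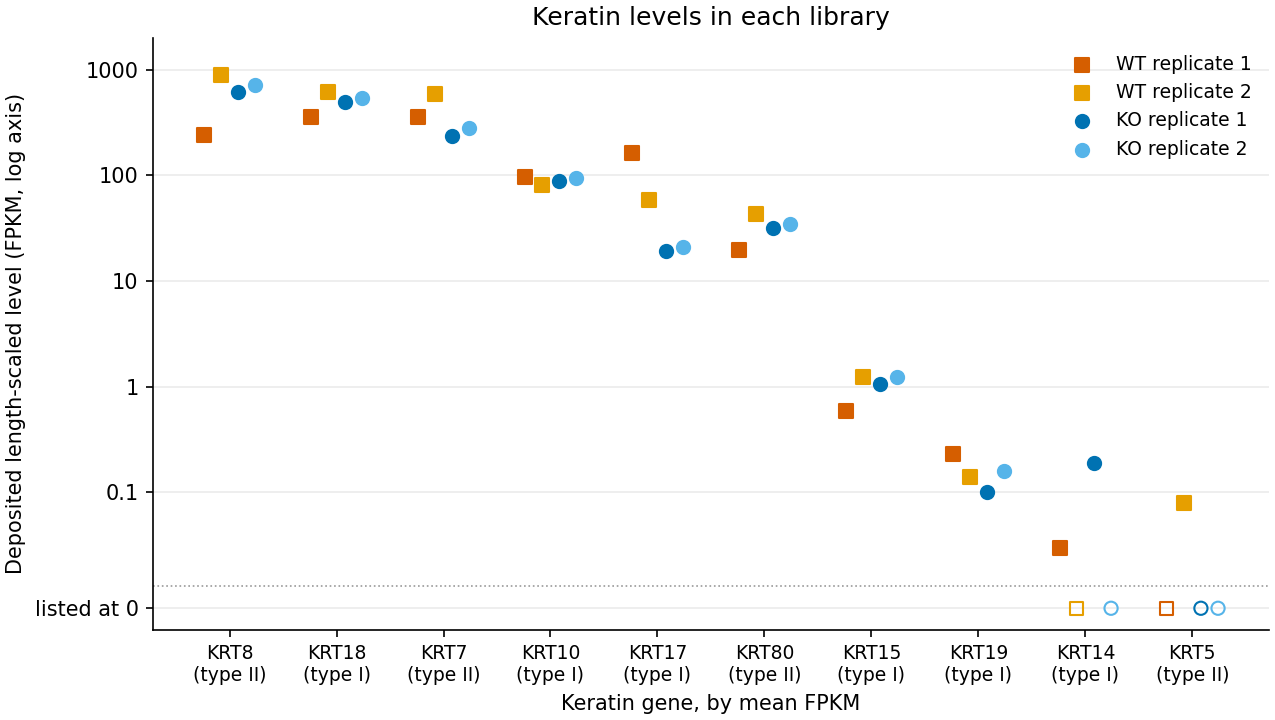
Deposited level of each keratin in FPKM on a log axis, 1 point per library (squares WT, circles KO), ordered by mean; open symbols mark values listed at 0. KRT8, KRT18 and KRT7 lie between 237 and 885 FPKM, and KRT15, KRT19, KRT14 and KRT5 lie below 2 FPKM.

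KRT8, the type II keratin of simple epithelia, was at 241 and 885 FPKM in WT replicates 1 and 2 and at 609.6 and 721 FPKM in the KO libraries. It was lowest in one WT library and highest in the other, and both KO libraries lay between them. On the CPM scale, WT replicate 2 was 3.66-fold above WT replicate 1, whereas the KO libraries differed 1.18-fold. The means were 563 ± 456 FPKM in WT and 665 ± 78.7 FPKM in KO (SD, n = 2 each). The log2 fold change of KO against WT in edgeR was 0.19 (SE 0.61, adjusted p = 0.941), far smaller than the distance between the WT libraries.

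KRT18, the type I partner of KRT8, was at 356 and 615 FPKM in WT replicates 1 and 2 and at 493 and 542 FPKM in the KO libraries. Again both KO values lay between the WT values, but the WT libraries were closer, 1.75-fold apart on the CPM scale. The log2 fold change was 0.04 (SE 0.33, edgeR adjusted p = 0.974). KRT8 and KRT18 did not keep a fixed ratio: KRT8 over KRT18 in FPKM was 0.677 in WT replicate 1 and 1.44 in WT replicate 2, against 1.24 and 1.33 in the KO libraries. WT replicate 1 was the only library with less KRT8 than KRT18.

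KRT7, a type II keratin of ductal and glandular epithelia, was at 354 and 587 FPKM in WT replicates 1 and 2 and at 237 and 277 FPKM in the KO libraries. Both KO values lay below both WT values, by 1.47-fold from WT replicate 1 to the KO mean and 2.36-fold from WT replicate 2 on the CPM scale. The log2 fold change was -0.94 (SE 0.31), which did not pass (edgeR adjusted p = 0.834; unadjusted p = 0.0291). KRT7 was above KRT8 in WT replicate 1 (1.47 times its FPKM) and below it elsewhere, at 0.663 times KRT8 in WT replicate 2 and at 0.388 and 0.385 times in KO. Both KO ratios lay below both WT ratios. With 2 libraries a genotype, an exact two-sided permutation test cannot give a p under 0.333 for such a ratio.

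KRT17, the type I keratin of injured and appendage epithelium, showed the widest range of the 7 tested. It had 8324 counts in WT replicate 1, 1877 in WT replicate 2, and 621 and 669 in the KO libraries. The levels were 164 and 58.5 FPKM in WT and 19.4 and 20.9 FPKM in KO, so the 2 KO libraries lay close together and below both WT libraries. WT replicate 1 was 8.38-fold and WT replicate 2 3.01-fold above the KO mean on the CPM scale, and the WT libraries were themselves 2.79-fold apart. The log2 fold change was -2.51 (SE 0.53), which did not pass in edgeR (adjusted p = 0.834; unadjusted p = 0.00496) and passed in DESeq2 (adjusted p = 0.0012). The reads of KRT17 may be shared with its close relatives KRT16 and KRT14 and with pseudogenes. In these libraries KRT16 did not exceed 79.1 counts, and KRT17P2, a KRT17 pseudogene in the table, did not exceed 1.01 counts.

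KRT80, a type II keratin of differentiating epithelia, was at 19.8 and 42.8 FPKM in WT replicates 1 and 2 and at 32.0 and 34.5 FPKM in the KO libraries. It followed the order of KRT8, with KO between the WT values and the WT libraries 2.13-fold apart on the CPM scale. Its log2 fold change was 0.02 (SE 0.40, edgeR adjusted p = 0.99).

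KRT10, the type I keratin of upper epidermal layers, was the steadiest of the 7 tested. It was at 95.2 and 80.0 FPKM in WT and at 87.3 and 94.4 FPKM in KO, with means of 87.6 ± 10.8 and 90.9 ± 5.02 FPKM (SD, n = 2 each). Here WT replicate 1 was the highest and WT replicate 2 the lowest library, only 1.18-fold apart on the CPM scale.

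The remaining keratins were rare. KRT15, a type I keratin of basal and stem-like cells, had 37.2 and 50.1 counts in the WT libraries and 46.5 and 46.4 counts in the KO libraries, or 0.59 to 1.24 FPKM. Its level was lowest in WT replicate 1, and the other 3 libraries lay within 2.42 to 2.70 CPM. KRT19, the smallest simple-epithelial keratin, had 10.9 and 4.08 counts in the WT libraries and 3 and 4.91 in the KO libraries. A KRT19 pseudogene, KRT19P2, was given 24.5 and 10.7 counts in the WT libraries, more than KRT19 itself, and 0 in KO. Reads of these 2 cannot be told apart with certainty. KRT14 had 1.48 counts in WT replicate 1, a further 6.33 in KO replicate 1, and none (0) in the other 2 libraries. KRT5 had 3 counts in WT replicate 2 and 0 elsewhere. A count of 0 allows up to 3 counts, or 0.102 to 0.162 CPM at these depths (counting error only), so lower levels of KRT5 or KRT14 were not detectable.

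Because the keratins were chosen with this contrast known, the following counts are a description, and the shares of all genes beside them are given for scale. Across the 7 keratins tested, the comparison of KO with WT gave 0 calls in edgeR at adjusted p under 0.05, where 0% of 16030 genes were called, and 2 unadjusted p under 0.05, those of KRT7 and KRT17, where 4.17% of genes had one. DESeq2 called 1, KRT17, against 0.25% of genes. The targeted gene itself, STK26, did not pass in edgeR with all libraries (log2 fold change -2.73, SE 0.26, adjusted p = 0.834). In DESeq2 STK26 passed (adjusted p = 8.49e-12). A keratin that did not pass in edgeR is thus not shown to be unchanged. Both KO values lay below both WT values for KRT7 and KRT17, 2 of 7, against 19.0% of genes tested, and above both for 0 of 7, against 18.4%. The median log2 fold change of the 7 was 0.02, beside -0.01 over all genes tested. Of the 6 keratins with a mean of at least 5 CPM, both KO values lay between the WT values for 4 (KRT8, KRT18, KRT80 and KRT10), against 31.6% of genes. The WT libraries were over 2-fold apart for 3 of the 6 (KRT8, KRT17 and KRT80), against 19.5% of genes, and the KO libraries for 0.

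**Figure D2:**
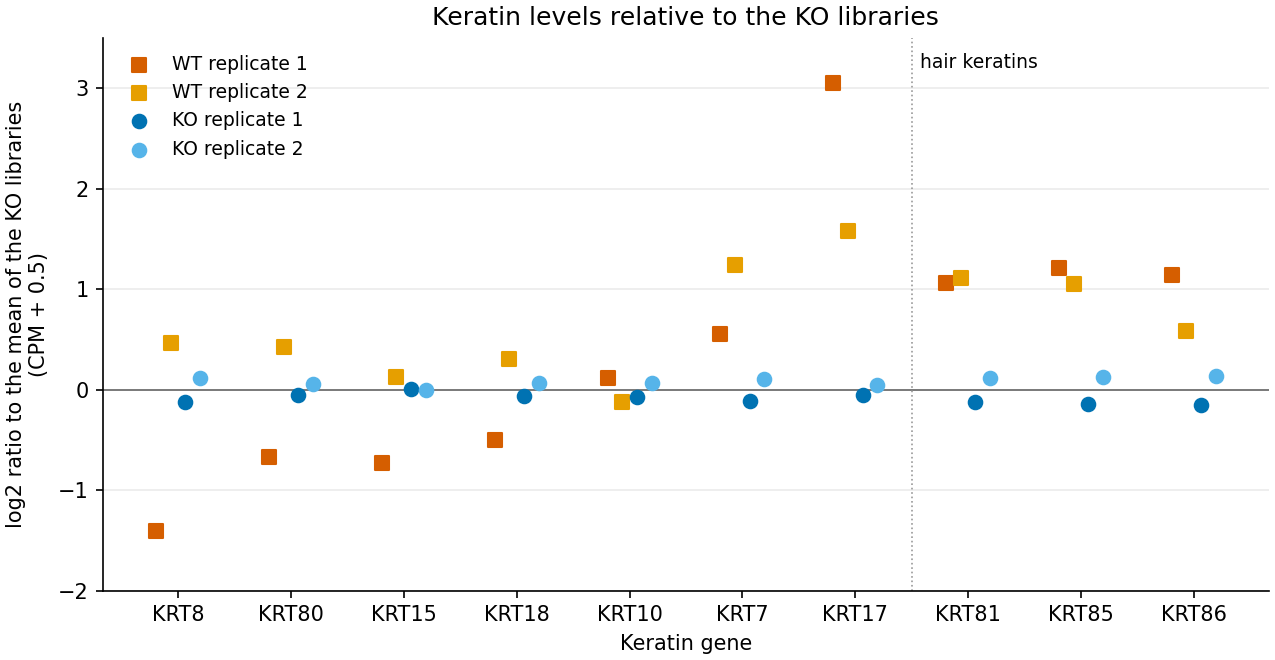
log2 ratio of each library to the mean of the KO libraries, on CPM with 0.5 added, for the 7 keratins tested and 3 hair keratins (squares WT, circles KO). KRT8, KRT80, KRT15 and KRT18 have WT replicate 1 below and WT replicate 2 above the KO mean, KRT17 has WT replicate 1 at 3.05 and WT replicate 2 at 1.57, and KRT81 and KRT85 have both WT libraries near 1.

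The direction for most of these keratins turned on which WT library was used. Without WT replicate 1, edgeR called 3 of the 7 lower in KO (3.93% of genes) and 0 higher (2.54% of genes). KRT8 then fell by 0.46 on the log2 scale (SE 0.13, edgeR adjusted p = 0.0125), KRT7 by 1.24 (SE 0.13, adjusted p = 7.49e-18) and KRT17 by 1.59 (SE 0.16, adjusted p = 5.84e-19). KRT80 had a log2 fold change of -0.42 (SE 0.14) and KRT18 of -0.30 (SE 0.13), neither of which passed (edgeR adjusted p = 0.0528 and 0.198). Without WT replicate 2, edgeR called 5 of the 7, in a fit that called 51.3% of all genes. KRT8 then rose by 1.43 (SE 0.15, edgeR adjusted p = 7.86e-20), KRT80 by 0.69 (SE 0.16, adjusted p = 5.62e-05) and KRT18 by 0.52 (SE 0.15, adjusted p = 0.000919). KRT7 fell by 0.53 (SE 0.14, edgeR adjusted p = 0.000556) and KRT17 by 3.04 (SE 0.15, adjusted p = 1.96e-85). KRT7 and KRT17 thus pointed down against either WT library, and KRT8, KRT18 and KRT80 pointed down against WT replicate 2 and up against WT replicate 1. Both fits use the same KO libraries and assume that the lone WT library varies as those do, so their p-values do not cover the spread within WT.

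**Figure D3:**
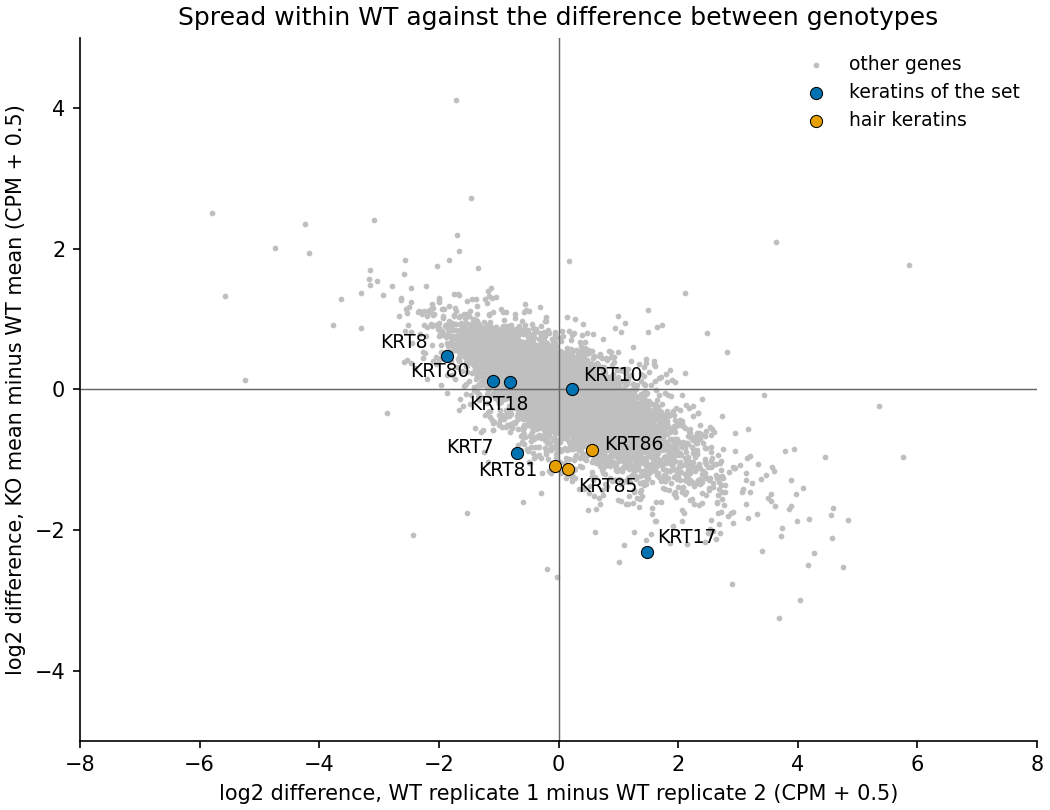
Each point is a gene with a mean of at least 5 CPM; the horizontal axis is the log2 difference between the WT libraries and the vertical axis that between the genotype means (CPM with 0.5 added), so both use the WT values. KRT8 lies at -1.87 and 0.47 and KRT17 at 1.47 and -2.31, while KRT81 and KRT85 lie near 0 on the horizontal axis and at -1.09 and -1.14 on the vertical.

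Summed over the 10 genes, type I and type II RNA in FPKM were nearly equal in WT replicate 1, and type II exceeded type I in the other 3 libraries. Type I genes took 50.1% of the summed FPKM in WT replicate 1, 33.2% in WT replicate 2, and 40.7% and 38.9% in the KO libraries. The type I sum includes KRT10, 7.74% of the whole in WT replicate 1. Its FPKM there rests on a short transcript length of 649 bases, so the near equality depends on that length. Protein was not measured. The sums of both types were 1230.0 FPKM in WT replicate 1, 2269 in WT replicate 2, and 1479.8 and 1692 in KO, or 0.278% to 0.502% of all FPKM. KRT8 alone made up 19.6% of the sum in WT replicate 1 and 39.0% to 42.6% in the other 3 libraries. KRT17 made up 13.3% in WT replicate 1, 2.58% in WT replicate 2 and 1.31% and 1.23% in KO. Over all 38 keratin genes in the table the sums were 1675 and 2682 FPKM in WT and 1665 and 1913 FPKM in KO. In FPKM, WT replicate 1 thus had the smallest sum over the 10 genes, while over all keratins KO replicate 1 was slightly lower. As a share of counts, all keratins were lowest in WT replicate 1, at 0.263%. The share was 0.459% in WT replicate 2 and 0.287% and 0.330% in KO. The FPKM of KRT85, part of the wider sum, rests on an implied length of 1134 to 1173 bases.

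**Figure D4:**
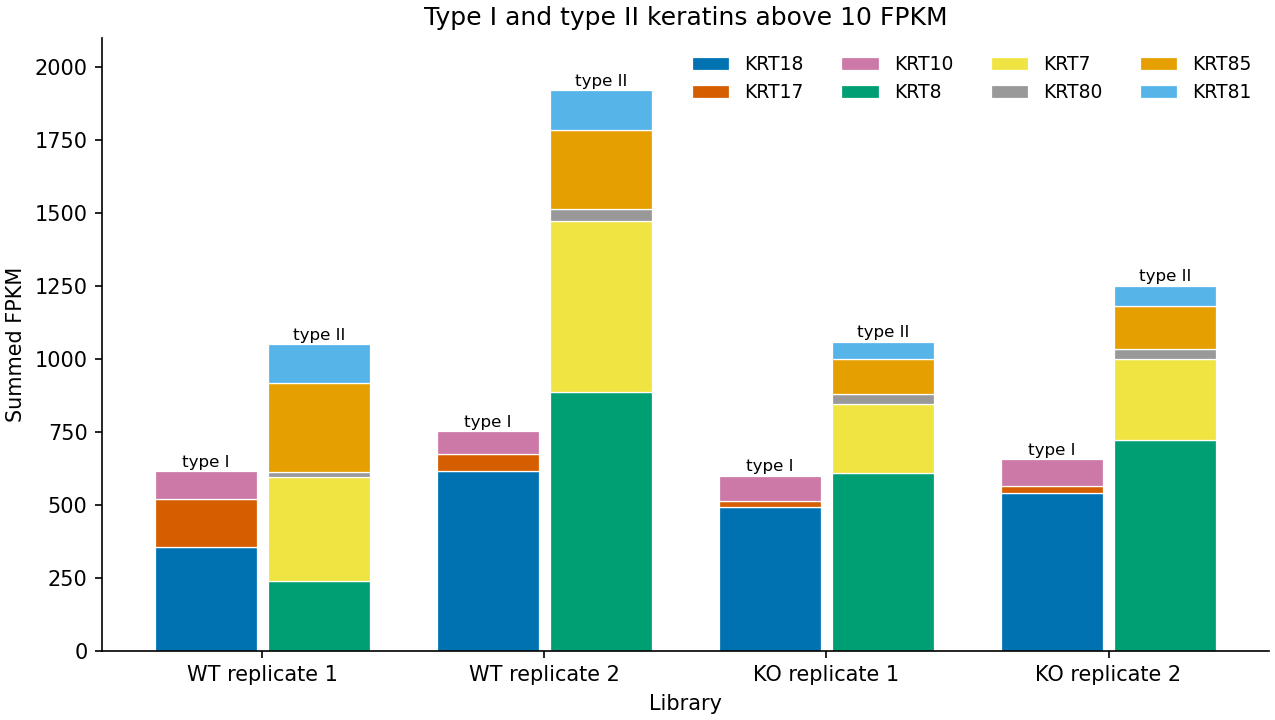
Summed FPKM of type I and type II keratins in each library, stacked by gene, for the 8 keratins above 10 FPKM in every library, the hair keratins KRT81 and KRT85 included. The type II stack is the taller in each library once KRT81 and KRT85 are counted, and the KRT17 segment is largest in WT replicate 1.

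Counts and FPKM are tied by a transcript length. The length that the 2 columns imply was 1928 to 1972 bases for KRT8, 1538 to 1590 for KRT18, 1622 to 1641 for KRT7, 1663 to 1721 for KRT17 and 4140 to 4167 for KRT80. It was nearly constant across libraries for each, whereas that of STK26 was 3032 and 3132 bases in WT and 1776 and 1311 in KO. STK26 was at 17.23 and 17.24 FPKM in WT and at 5.22 and 5.75 FPKM in KO. Its log2 difference of KO from WT was -1.65 in FPKM and -2.66 in counts scaled to the library total. Among these keratins KRT10 had the shortest implied length, 649 to 673 bases, and this raises its FPKM beside its counts. KRT10 was below KRT80 in CPM (64.0 against 84.9 in WT replicate 1, 54.3 against 181 in WT replicate 2, 56.2 against 130 in KO replicate 1 and 62.1 against 140 in KO replicate 2) but above it in FPKM. The sources used here do not give the transcript models behind these lengths, so the place of KRT10 in the order of levels depends on them. The order by mean FPKM was KRT8, KRT18, KRT7, KRT10, KRT17 and KRT80. The ranges of KRT8, KRT18 and KRT7 over the 4 libraries overlapped. KRT17 overlapped both KRT10 and KRT80, while KRT10 lay above KRT80 in every library.

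Most other keratins of the family were rare or listed at 0. Of 45 further keratins sought, 28 were found in the table, and 25 of these stayed below 2 FPKM in every library. The 3 above were all hair keratins of type II, which harden hair and nail. KRT85 was at 303 and 269 FPKM in WT and at 121 and 147 FPKM in KO. KRT81 was at 133 and 138 FPKM in WT and at 59.3 and 70.1 FPKM in KO, and KRT86 at 6.71 and 4.14 FPKM in WT and 2.53 and 2.90 FPKM in KO. All 3 had both KO values below both WT values, as did 19.0% of all genes tested on the CPM scale. For KRT85 and KRT81, unlike KRT8 and KRT17, the WT libraries lay close together.

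None of these hair keratins passed in edgeR with all libraries. The log2 fold change was -1.13 (SE 0.23) for KRT85, -1.09 (SE 0.23) for KRT81 and -0.94 (SE 0.35) for KRT86, each at an edgeR adjusted p of 0.834. In DESeq2 the adjusted p was 0.0574 for KRT85 and 0.0605 for KRT81. On the log2 scale, KRT85 fell by 1.05 (SE 0.14) and KRT81 by 1.12 (SE 0.14) without WT replicate 1. Both also fell without WT replicate 2, by 1.19 and 1.04. KRT86 fell by 0.62 (SE 0.23) without WT replicate 1 and by 1.17 (SE 0.21) without WT replicate 2. The sequences of KRT81, KRT83 and KRT86 are close, so reads may be shared between them. Only 2 of the 13 further type I keratins found could be tested, KRT16 and KRT23, and neither passed in edgeR with all libraries. Without WT replicate 1 the log2 fold change was -0.83 (SE 0.57) for KRT16 and 0.53 (SE 0.93) for KRT23. Without WT replicate 2 it was -1.44 (SE 0.48) for KRT16 and -0.54 (SE 0.76) for KRT23. KRT16, a keratin of injured epidermis, was at 1.38 and 1.03 FPKM in WT and 0.66 and 0.42 FPKM in KO.

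The profiles of KRT8, KRT18, KRT7 and KRT17 over the libraries were set beside those of all other genes. By the root mean square difference of centred log2 CPM over the 4 libraries, among 11572 other genes, the nearest to KRT17 were CA2 (0.086), MMP15 (0.161) and WNT11 (0.173), and the nearest to KRT7 were TBX20 (0.031), SLC12A3 (0.090) and UBASH3B (0.125). Those nearest to KRT18 were INVS (0.020), FIBP (0.023) and MAEA (0.023), and those nearest to KRT8 were HSPB8 (0.067), POMZP3 (0.085) and TUBB2A (0.086). KRT18 ranked 1604 from KRT8, while KRT8 ranked 7439 from KRT18, as a rank depends on the gene it is counted from. KRT80 ranked 771 from KRT8 and 269 from KRT18, and KRT81 ranked 76 from KRT7.

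Desmosomes and hemidesmosomes anchor keratin filaments to neighbouring cells and to the basement membrane. No desmosome gene passed with all libraries in edgeR or DESeq2 (0 of 7 tested in each). Both KO values lay below both WT values for 1 of the 7, against 19.0% of all genes tested, and above them for 1, against 18.4%. The 1 below was DSP, the plakin that ties keratin to the desmosome, at 307 and 258 CPM in WT, against 181 and 172 CPM in KO. The 1 above was PKP3, at 36.3 and 37.4 CPM in WT, against 39.5 and 49.5 CPM in KO. Without WT replicate 1, 1 of 7 was called lower and 1 higher, where 3.93% and 2.54% of all genes were. DSP fell by 0.55 in that fit (SE 0.14, edgeR adjusted p = 0.00359). PERP, a desmosomal membrane protein, rose by 0.59 in that fit (SE 0.14, adjusted p = 0.00138), but was highest in WT replicate 1 (406 CPM, against 238 in WT replicate 2 and 368 and 347 in KO).

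Among hemidesmosome genes 7 of 8 tested had a negative log2 fold change, against 51.4% of all genes tested, with a median of -0.52 beside -0.01 over all genes, and 0 passed with all libraries in edgeR or DESeq2. LAMB3, a chain of the laminin to which hemidesmosomes bind, was at 529 and 233 CPM in WT, against 152 and 166 CPM in KO. ITGB4, the integrin chain that links keratin to the basement membrane, reached 247 CPM in WT replicate 1, while the other 3 libraries held 42.2 to 55.999 CPM. Without WT replicate 1, 2 of 8 were called lower, against 3.93% of all genes, LAMB3 by 0.54 (SE 0.14, edgeR adjusted p = 0.00406) and the plakin PLEC, and ITGB4 had a log2 fold change of -0.20 (SE 0.17), which did not pass. The other plakins and keratin-binding proteins had 0 calls in 9 tested in edgeR, DESeq2 and edgeR without WT replicate 1. PPL, a plakin that binds intermediate filaments, reached 249.5 CPM in WT replicate 1, with 83.2 to 97.7 CPM elsewhere. Both KO values lay below both WT values for 2 of the 9, against 19.0% of all genes tested, and above them for 1, against 18.4%. The 1 above was EVPL, at 29.8 and 33.5 CPM in WT, against 39.9 and 44.1 CPM in KO.

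Most lists of cell markers had their highest CPM sum in WT replicate 1, while the stratified and basal list had it in WT replicate 2. Summed over 12 simple and glandular epithelium markers, the level was 496 CPM in WT replicate 1, against 140 in WT replicate 2 and 165 and 192 in KO, so this list was highest in the library where KRT8 and KRT18 were lowest. MUC1, an epithelial surface mucin, gave most of it, reaching 357 CPM in WT replicate 1, while the other 3 libraries held 71.4 to 106 CPM. CLDN7 was also highest there, at 72.2 CPM against 10.4 to 12.5 CPM elsewhere. EPCAM, an epithelial adhesion protein, went the other way, with 7.64 CPM in WT replicate 1 and more, from 14.2 to 15.046 CPM, elsewhere. CLDN4 was highest in KO replicate 2, at 43.5 CPM against 39.2 CPM in WT replicate 1. The part of these markers in the keratin values was not tested.

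The 8 stratified and basal markers found summed to 244 and 265 CPM in WT, against 149 and 160 CPM in KO. TRIM29, a protein of basal epithelial cells, gave most of this, at 209 and 216 CPM in WT, against 105 and 120 CPM in KO. The sum rests on TRIM29: both KO values lay below both WT values for 1 of the 4 markers tested and above them for 2, and the median log2 fold change of the 4 was 0.12. S100A2, a calcium-binding protein of basal cells, measured 8.62 and 9.10 CPM in the WT libraries and 13.0 and 12.2 CPM in the KO libraries. TP63, the master regulator of basal epithelium, measured 1.48 and 3.04 CPM in the WT libraries and 3.90 and 4.43 CPM in the KO libraries. Fibroblast markers summed to 116 to 193 CPM, immune markers to 16.9 to 41.3 CPM and endothelial markers to 2.87 to 8.07 CPM. Smooth muscle and mesothelial markers summed to 61.8 to 224 CPM. All these sums in CPM were highest in WT replicate 1. There COL1A1 gave 144 of the 193 CPM of fibroblast markers, and CD68 gave 34.1 of the 41.3 CPM of immune markers. In FPKM the endothelial sum was highest in WT replicate 2, at 2.17 against 1.12 in WT replicate 1. The mesothelial marker MSLN made up 181 of the 224 CPM in WT replicate 1, while TAGLN, a smooth muscle gene, was lowest there, with 0.172 CPM against 1.61 to 2.35 CPM elsewhere. In bulk RNA, fewer cells of a type and less RNA per cell cannot be told apart.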

How the data were processed

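The authors deposited 1 table with an estimated count and a second, unnamed value per gene and library. HISAT2, Cufflinks and RSEM and the mouse build GRCm38.p5 are named, per the submitters' processing notes, without versions or roles. The sources used here give no annotation, filter or strand setting. The deposited second value was read as FPKM, because its columns sum to 441772 to 452971 and not to 1 shared total.

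Estimated counts were rounded, filtered with filterByExpr, scaled by TMM and compared by genotype alone in edgeR 4.0.16 (quasi-likelihood test, robust, R 4.3.3), with Benjamini-Hochberg adjustment over 16030 genes. A call is an adjusted p under 0.05. An edgeR SE is the size of the log2 fold change over the root of its F statistic. DESeq2 1.42.0, limma 3.58.1 on log2(FPKM + 1) or + 0.1 (genes with a mean of at least 1 FPKM), RLE and upper-quartile scaling, other filters, a replicate block and leaving out each library were alternatives. The edgeR, DESeq2 and limma fits were checked on simulated counts with the same spread in every library, limma on CPM. That check does not cover the spread seen between the WT libraries. CPM uses TMM-scaled totals, and the implied length is the ratio of counts, scaled to the library total, to FPKM. Python 3.11.15 did the rest.

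All 10 keratins were named, with the member of each list highest in FPKM, up to 3 with the smallest p, and the 3 nearest profiles of KRT8, KRT18, KRT7 and KRT17. A few further genes (PLEC, NEFH, KRT83) were picked with their values in view. The keratins and lists were chosen with earlier results of these data known.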

Additional observations from a re-analysis of the deposited data

How the results depend on the processing

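The results turned on the WT libraries. Leaving out 1 library at a time gave 0 to 8702 genes and 0 to 5 keratins called, against 0 and 0 with all 4; leaving out a KO library gave 0, WT replicate 1 gave 1065 genes and WT replicate 2 gave 8702. The log2 fold change ranged from -0.46 to 1.43 for KRT8, -0.30 to 0.52 for KRT18, -0.17 to 0.96 for KRT15, -0.42 to 0.69 for KRT80 and -0.0889 to 0.124 for KRT10, whose value with all 4 was -0.00092. The cause was not tested. It stayed negative for KRT7 (-1.24 to -0.53) and KRT17 (-3.04 to -1.59) in all 13 alternatives. DESeq2 called 40 genes and 1 keratin. RLE and upper-quartile scaling, no filter, 5 CPM in 2 libraries and both limma fits called 0 genes. The value of KRT10 was 0.0285 with upper-quartile scaling, 0.00932 without a filter, and 0.0565 and 0.0572 in the limma fits.

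With the replicate number as a replicate block, 10 genes and 0 keratins were called, and KRT10 was at 0.0022. Same-numbered libraries deviated with a correlation of -0.137 across 16030 genes, which is not positive. The log2 difference between the WT libraries had an SD of 0.984, against 0.473 between the KO libraries. A departure of either WT library could hide a shared deviation, so the correlation cannot decide whether the numbers pair the libraries. The crossed replicate block, added after the data were seen, called 4 genes and 0 keratins (KRT10 at 0.00232).

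Over all listed keratins the type I share was 36.9% in WT replicate 1 and 28.2% in WT replicate 2, and 36.2% and 34.5% in KO. Counting floors limit KRT5, KRT14 and KRT19, for which no fold change is given.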

Other observations

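Transcription factors of epithelial cells were mixed. Of 22 sought, 14 could be tested, and 0 passed with all libraries in edgeR or DESeq2. Both KO values lay below both WT values for 7 of the 14, against 19.0% of all genes tested, and above them for 4, against 18.4%. KLF4, a factor of differentiating epithelia, was at 33.0 and 25.4 CPM in WT, against 14.7 and 14.6 CPM in KO. Its relative KLF5, found in proliferating epithelia, was at 155 and 141 CPM in WT, against 91.8 and 88.3 CPM in KO, and TFAP2A, a factor of ectodermal epithelia, at 267 and 179 CPM in WT, against 125 and 128 CPM in KO. Without WT replicate 1 these 3 were lower by 0.79, 0.64 and 0.50 on the log2 scale. The ETS factor EHF went the other way there, higher by 1.39 (SE 0.20). EHF was at 3.06 and 11.1 CPM in WT, against 31.4 and 26.5 CPM in KO, with both KO values above both WT values.

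Other intermediate filaments were mixed. VIM, the mesenchymal filament, was at 617 and 500.1 FPKM in WT and at 480.0 and 503 FPKM in KO, where the genotypes overlapped. In CPM both KO values, 960.4 and 1005, lay below both WT values, 1269.6 and 1037. Its log2 fold change was -0.23 (SE 0.23, edgeR adjusted p = 0.838). DES, the filament of muscle, was, like KRT17, highest in WT replicate 1 and lower in both KO libraries than in either WT library, with 10.8 and 6.21 CPM in the WT libraries and 4.08 and 3.86 CPM in the KO libraries. Its log2 fold change was -1.10 (SE 0.41), which did not pass (edgeR adjusted p = 0.834; unadjusted p = 0.0417). BFSP1, a filament protein known from the eye lens, was at 4.02 and 5.13 CPM in WT, against 10.9 and 10.8 CPM in KO. Of 10 filament genes tested, 0 passed with all libraries in edgeR, and without WT replicate 1 BFSP1 and NEFH, a neurofilament chain, were called higher, 2 of 10 against 2.54% of all genes. LMNB1, a nuclear lamin, was at 82.2 and 119 CPM in WT, against 141 and 140 CPM in KO.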
